A study of Homo sapiens with 4 samples.

Results

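The small leucine-rich proteoglycans (SLRPs) described here are decorin (DCN), biglycan (BGN), lumican (LUM), fibromodulin (FMOD), asporin (ASPN), osteoglycin (OGN), PRELP and osteomodulin (OMD). The members were taken from the deposited mRNA table by gene symbol, a rule that reads no measured value, but the family itself was chosen with earlier results of these data known. All 8 of 8 symbols were found among 19610, with 30 of the 79798 transcripts. The cells were hFOB1.19, an osteoblast line of human fetal bone immortalized with a temperature-sensitive SV40 large T antigen. One library was made from control cells at differentiation day 0, kept at the permissive temperature, and 1 each from cells undergoing mineralization at days 3, 6 and 9, kept at the higher, restrictive temperature. In comparisons with day 0, time in culture and temperature therefore cannot be told apart, while days 3, 6 and 9 were at the same temperature.

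SLRPs are secreted proteins with a short core of leucine-rich repeats. Many carry chondroitin, dermatan or keratan sulfate chains on this core, and they bind collagen fibrils and control their growth and spacing. They also hold growth factors such as TGF-beta in the matrix, and several of them are abundant noncollagenous proteins of bone. DCN, BGN and ASPN form class I of the family, LUM, FMOD, PRELP and OMD class II, and OGN class III.

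Levels are given as FPKM, the fragments of a transcript scaled to its length and to the mapped fragments of the library, summed over the transcripts of a gene. Because FPKM is per length, levels of different genes can be set side by side. With 1 library per time point there is no replicate error and no test was made, so all differences are between libraries. In their place a fixed size rule was used. Genes that reached 1 FPKM in any library were called higher where the log2 ratio was 1 or above, and lower where it was -1 or under, with 1 FPKM added to both values. The added 1 FPKM understates the change of genes with low levels. The mRNA libraries are described as treated with RNase R, an exonuclease that degrades linear RNA, and the circRNA libraries as untreated, the reverse of the usual use of this enzyme. It is not settled here whether this is a slip of the description, so the FPKM may be those of linear mRNA or of what a digestion left of it. The table holds no read counts, so the depth behind a value is unknown and no interval could be computed. Over all transcripts the deposited FPKM summed to between 538072 and 617857 per library, and 12859 genes reached the minimum of 1 FPKM. Their median log2 ratio to day 0 was -0.08 on days 3 and 6 and -0.09 on day 9. With the FPKM rescaled to the same sum in every library, these medians were 0.10, 0.08 and 0.02, so the centre of the ratios depends on the scaling.

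The labelled cell type was checked with 13 osteoblast markers, of which 6 reached 1 FPKM. RUNX2, the master transcription factor of the lineage, had 7.37 FPKM on day 0 and 18.2 to 26.2 FPKM later, and SPARC, a matrix protein of bone, had 1113 to 1469 FPKM. ALPL, the alkaline phosphatase of mineralizing cells, had 0.294 FPKM on day 0 and 4.18 to 4.35 FPKM later. The collagen genes COL1A1 and COL1A2 had 777 to 1974 and 125 to 856 FPKM. SPP1, another matrix gene, had 0.794 FPKM on day 0 and 7.45 FPKM on day 9. The other markers of the list stayed under 1 FPKM. SP7, a transcription factor of the lineage, had at most 0.274 FPKM, and the matrix genes BGLAP and IBSP at most 0.793 and 0.609 FPKM. The late marker PHEX had 0.653 FPKM on day 0 and 0.0502 to 0.0933 FPKM later, and DMP1, MEPE and SOST stayed under 0.1 FPKM in every library. Endothelial, fat and epithelial markers (3 each) summed to at most 1.12 FPKM in any library. Of the 3 blood markers, CD68, a lysosomal protein that is not restricted to blood cells, went from 16.2 FPKM on day 0 to 90.6 on day 9, while PTPRC had at most 0.441 FPKM and HBB at most 0.179 FPKM. Of the stromal, tendon and cartilage markers, THY1, MKX and SOX9 were called higher on all 3 days, with 147, 4.46 and 5.32 FPKM on day 9, while TNMD, COL2A1 and ACAN stayed under 0.3 FPKM. The part of other cells in the SLRP values was not tested.

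With 1 FPKM added, DCN and LUM were at least 2-fold higher than day 0 on all 3 later days, BGN was so on day 3, and no member was lower on any day. Without any value added, the low members OGN, ASPN and OMD also passed 2-fold on some days. On day 3, OGN and ASPN were at 3.10 and 2.47 times day 0, beside 2.10 for BGN. The size rule called 3 of the 6 members at the minimum higher on day 3, against 8.13% of all genes at the minimum. It called 2 of the 6 on days 6 and 9, against 9.01% and 9.60%. On all 3 days the rule for higher was met by 2 members and by 5.93% of all genes, and that for lower by 0 members and 3.45% of genes. It called 5.30%, 6.42% and 6.52% of all genes lower on days 3, 6 and 9. FMOD and PRELP were under the minimum in every library and could not be called. ASPN, OGN and OMD reached the minimum only through libraries after day 0, so their passing already depends on a higher later value. The 3 comparisons share the day 0 library, so their calls are 1 pattern and not 3.

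**Figure D1:**
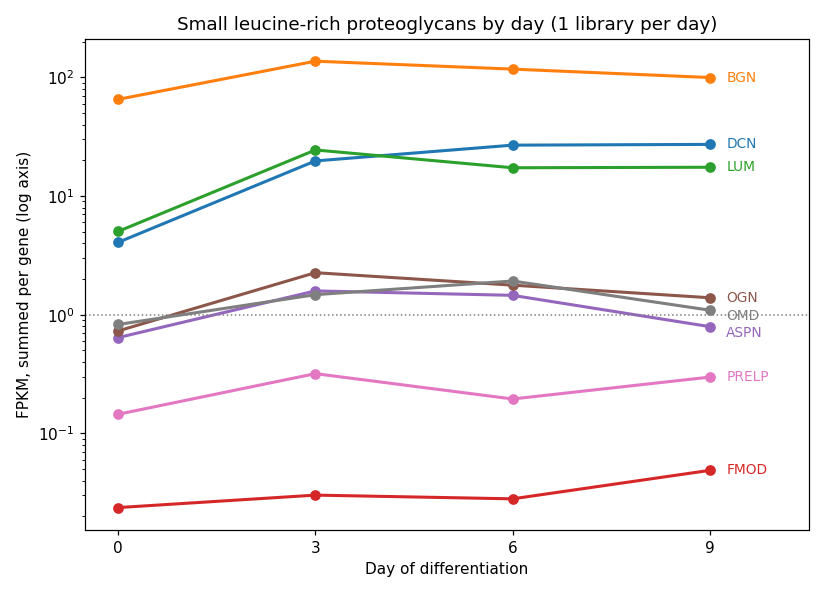
FPKM summed per gene (log axis) against the day of differentiation for the 8 members, with 1 library per day and a dotted line at 1 FPKM. BGN lies above all other members on every day, DCN and LUM run from about the same level on day 0 to 27.2 and 17.5 FPKM on day 9, and PRELP and FMOD stay under 1 FPKM.

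BGN, a class I proteoglycan that usually carries 2 glycosaminoglycan chains, was the most abundant member in every library. Its level of 65.3 FPKM on day 0 compared with 136.9, 117.4 and 99.7 FPKM on days 3, 6 and 9. The level was highest on day 3 and lower in each library after it, but stayed above day 0. Its log2 ratios of 1.06, 0.84 and 0.60 put BGN past the limit on day 3 only, by a narrow margin. Rescaled to the same sum, the day 6 ratio was 1.01 and past the limit as well. BGN stood at the 88.1st percentile of level among the 12859 genes on day 0 and at the 95.7th on day 3. The transcript ENST00000331595 held 96.9% to 98.8% of its FPKM, and ENST00000431891 the rest.

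DCN, the class I proteoglycan that coats collagen fibrils and binds TGF-beta, changed most by day 9. From 4.07 FPKM on day 0, its level reached 19.8, 26.8 and 27.2 FPKM in the libraries of days 3, 6 and 9. Most of the difference was present on day 3, and days 6 and 9 were close to each other. These levels gave log2 ratios of 2.03, 2.46 and 2.48, which is above that of 98.4%, 98.9% and 98.8% of the genes at the minimum. Without any value added, the day 9 level was 6.69 times that of day 0. Its percentile of level went from 22.1 on day 0 to 71.6 on day 9.

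LUM, a class II keratan sulfate proteoglycan that keeps collagen fibrils thin, had 5.03 FPKM at the start, then 24.4 FPKM on day 3 and 17.3 and 17.5 FPKM on days 6 and 9. The day 3 library held the highest value, and the later libraries lay between it and day 0. The log2 ratio was 2.08, 1.60 and 1.62. LUM is listed with a single transcript, ENST00000266718. DCN and LUM are direct neighbours in the genome, and on days 0 and 3 the level of DCN was 0.809 and 0.808 times that of LUM. On days 6 and 9 it was 1.55 and 1.56 times that of LUM, as the DCN value was higher and the LUM value lower than on day 3. The order of the pair thus differed between the early and the late libraries. With the DCN transcript ENST00000456569 left out, DCN had 22.6 and 23.6 FPKM on days 6 and 9. The late ratio was then smaller, with the order the same. Without replicates it is not known whether neighbours in the order of levels differ beyond the spread of a sample.

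OGN, ASPN and OMD, which lie side by side in the genome, were all low and all within the size rule. OGN, the class III member first described as an osteoinductive factor, had 0.729, 2.26, 1.77 and 1.39 FPKM on days 0, 3, 6 and 9, with log2 ratios of 0.91, 0.68 and 0.47. ASPN, which carries an aspartate-rich stretch in place of the usual chains and binds TGF-beta, had 0.641, 1.59, 1.46 and 0.793 FPKM, with log2 ratios of 0.66, 0.58 and 0.13. OMD, a keratan sulfate proteoglycan found chiefly in mineralized tissue, had 0.827, 1.47, 1.92 and 1.09 FPKM, with log2 ratios of 0.44, 0.68 and 0.19. Each of the 3 was above day 0 on every later day and lower on day 9 than on day 6. ASPN returned furthest, to 1.24 times its day 0 FPKM. With 0.1 in place of 1 FPKM added, the day 3 ratio of OGN was 1.51 and that of ASPN 1.19, and on day 6 the ratios of OGN, ASPN and OMD were 1.18, 1.07 and 1.13, all past the limit.

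PRELP, a heparin-binding member that anchors basement membranes to connective tissue, had 0.145, 0.318, 0.195 and 0.298 FPKM. FMOD, a keratan sulfate proteoglycan of tendon and cartilage, had 0.0237, 0.0301, 0.0280 and 0.0487 FPKM. Both are listed with 1 transcript, and at these levels no change was read from them. On day 0, the order of levels was BGN, LUM, DCN, OMD, OGN, ASPN, PRELP and FMOD. On day 9 it was BGN, DCN, LUM, OGN, OMD, ASPN, PRELP and FMOD.

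**Figure D2:**
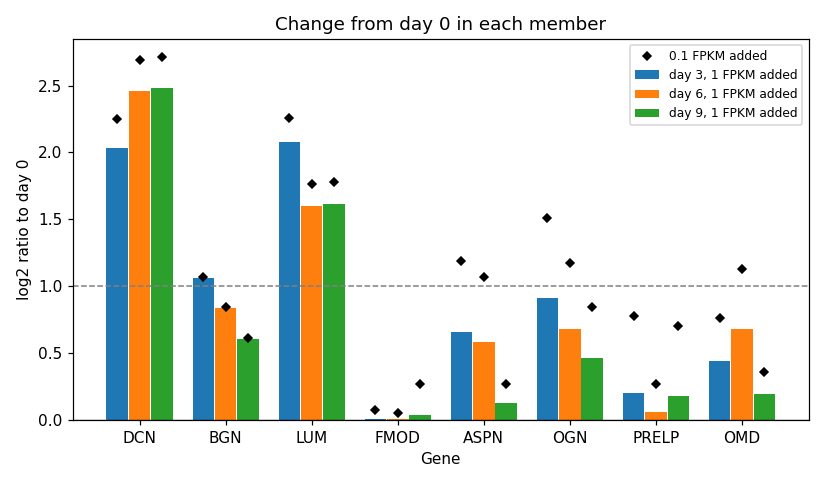
Log2 ratio to day 0 on days 3, 6 and 9 for each member (bars, 1 FPKM added; diamonds, 0.1 FPKM added) from 1 library per day, with a dashed line at the limit of 1. DCN and LUM pass the limit on every day under both settings, BGN passes it on day 3, and OGN, ASPN and OMD pass it on some days only with 0.1 FPKM added.

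Summed over the 8 members, SLRP mRNA amounted to 76.7 FPKM on day 0 and to 186.8, 166.9 and 148.0 FPKM on days 3, 6 and 9. BGN made up 85.1% of the day 0 sum and 73.3%, 70.3% and 67.4% of the later ones. The share of DCN went from 5.30% to 18.4% and that of LUM from 6.55% to 11.8% between days 0 and 9. Without BGN, the other 7 members summed to 11.5 FPKM on day 0 and to 49.9, 49.5 and 48.3 FPKM later. The part other than BGN was thus nearly level from day 3 on, and the decline of the total after day 3 was mostly that of BGN. The level part depends on the DCN transcript ENST00000456569. It was listed at 0 on days 0 and 3 and at 4.21 and 3.62 FPKM on days 6 and 9. Without this transcript, the part other than BGN would be lower on days 6 and 9 than on day 3. BGN, LUM, OGN and ASPN had their highest value on day 3, OMD on day 6 and DCN on day 9.

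Between successive later days, no member passed the size rule. From day 3 to day 6 the log2 ratios of the members at the minimum ran from -0.48 for LUM to 0.42 for DCN, and from day 6 to day 9 from -0.48 for OMD to 0.02 for DCN. Among all genes, 0.607% were called higher and 0.443% lower from day 3 to day 6, and 0.381% and 0.163% from day 6 to day 9. Large differences were thus rare after day 3 among all genes as well.

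The DCN sum rests on many transcripts. Of 19 listed, 6 were at 0 in every library and 5 reached 1 FPKM in any. ENST00000393155 had 0.795, 7.14, 8.05 and 8.52 FPKM on days 0, 3, 6 and 9, and its share of DCN was 19.5% on day 0 and 36.1% on day 3. ENST00000547568 had 1.13, 4.99, 6.31 and 6.58 FPKM, and ENST00000550563 had 1.32, 5.19, 6.15 and 4.88 FPKM. These 3 transcripts were all higher on each later day than on day 0. ENST00000456569 was at 0 in the day 0 and day 3 libraries but reached 4.21 FPKM by day 6 and 3.62 FPKM by day 9. A listed 0 may stand for an estimate that failed, and the transcript is therefore given by its values alone. With this transcript left out, DCN had 19.8, 22.6 and 23.6 FPKM on days 3, 6 and 9 and log2 ratios of 2.03, 2.22 and 2.28, so the calls do not rest on it. Of the log2 difference of 0.42 between days 6 and 3, 0.19 was then left.

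**Figure D3:**
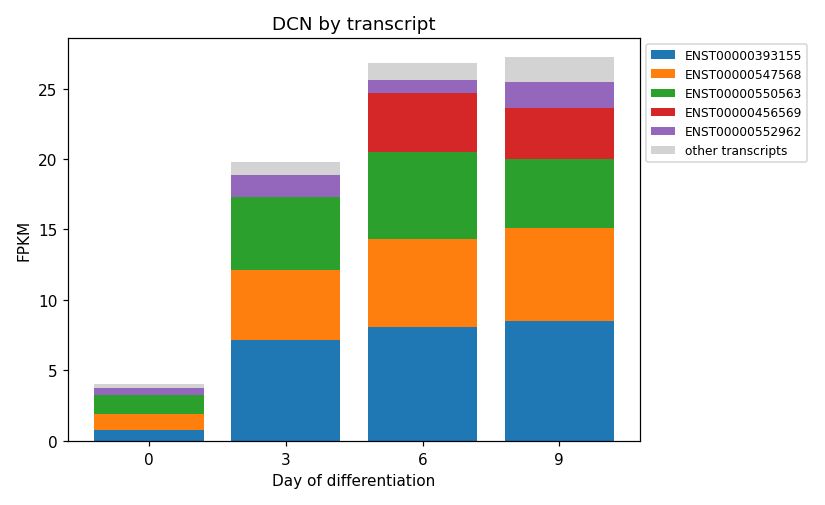
FPKM of DCN by day of differentiation, stacked by transcript, for the 5 transcripts that reached 1 FPKM in any library and all others together, with 1 library per day. ENST00000456569 appears only on days 6 and 9, and the other named transcripts are present on all days.

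The other members had simpler transcript patterns. OGN was carried by ENST00000262551, with 0.475, 2.18, 1.77 and 1.39 FPKM, while ENST00000375561, at 0.254 FPKM on day 0, was at 0 in the later libraries. By ENST00000262551 alone the OGN log2 ratio on day 3 was 1.11, past the limit that the sum of transcripts missed. Of the 2 ASPN transcripts, ENST00000375543 held all of the FPKM and ENST00000375544 was listed at 0 throughout.

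Upstream sequence is shown to contrast the most abundant member, BGN, with a low member of the OGN, OMD and ASPN group and with FMOD, which was close to 0. A RefSeq promoter table (GRCh38.p14) matched 5 of the 8 members. DCN, LUM and OMD had no entry, so DCN and LUM, called higher on all 3 days, could not be shown. The 250 bases before each start are given 5′ to 3′ on the gene's strand. Capitals mark the letters TATAAA of the TATA box, GGGCGG of the GC box, bound by SP1, and TGTGGT of the RUNX motif. They were marked on either strand and at any position, so a match need not lie where a TATA box works. The motifs do not overlap one another in these windows.
BGN (chrX:153494730-153494979, + strand): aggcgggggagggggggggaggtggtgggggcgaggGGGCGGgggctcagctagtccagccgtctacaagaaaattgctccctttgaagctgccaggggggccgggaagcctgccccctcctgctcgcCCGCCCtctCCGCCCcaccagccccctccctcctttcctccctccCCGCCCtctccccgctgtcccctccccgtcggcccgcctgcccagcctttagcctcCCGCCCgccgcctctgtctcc
ASPN (chr9:92482507-92482756, - strand): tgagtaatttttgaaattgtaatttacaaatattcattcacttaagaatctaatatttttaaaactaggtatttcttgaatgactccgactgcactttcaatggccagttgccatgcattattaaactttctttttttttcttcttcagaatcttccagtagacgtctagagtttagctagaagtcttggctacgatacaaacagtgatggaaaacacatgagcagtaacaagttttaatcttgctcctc
FMOD (chr1:203351123-203351372, - strand): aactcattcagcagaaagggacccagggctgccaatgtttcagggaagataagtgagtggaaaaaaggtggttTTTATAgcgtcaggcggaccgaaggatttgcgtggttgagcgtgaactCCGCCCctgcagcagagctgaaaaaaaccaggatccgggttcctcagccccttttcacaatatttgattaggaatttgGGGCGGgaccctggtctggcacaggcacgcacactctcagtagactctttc
The BGN window was 74.0% G and C, with 5 GC boxes and no TATAAA. The ASPN window was 32.4% G and C and held none of the 3 motifs. OGN, of the same group, has 2 overlapping windows, with 36.0% and 31.2% G and C. Both hold the same TATAAA match, and 1 of them also holds 1 TGTGGT. The FMOD window was 51.6% G and C, with 1 TATAAA and 2 GC boxes. The window of PRELP, also under 1 FPKM, was 52.8% G and C and held none of the 3 motifs. Over 35116 promoter windows of the same length, the median was 58.0% G and C, and 10.7% held TATAAA, 42.6% GGGCGG and 11.0% TGTGGT. These matches describe the letters only.

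Members share neighbourhoods in the genome by RefSeq order. OGN, OMD and ASPN lie within the span of CENPP, a centromere protein gene on the opposite strand to OGN and ASPN. CENPP had 10.4, 17.9, 20.1 and 26.8 FPKM, well above these 3 members, with a log2 ratio of 1.28 on day 9. Its value was highest on day 9, where theirs were lower than on day 6. BGN shares 486 of its 14567 genomic bases with HAUS7, a spindle gene on the other strand. HAUS7 had 22.8, 24.9, 24.1 and 21.4 FPKM. The library kit marks strand, but whether the quantification used it is not given in the sources used here, so reads of such overlapping pairs may not have been told apart. ECM2, a leucine-rich matrix gene next to ASPN, had 1.08, 2.55, 2.39 and 2.04 FPKM and was within the limit.

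Around DCN and LUM, the neighbouring SLRP genes KERA and EPYC were at or near 0, with at most 0.0225 FPKM for KERA and 0 in every library for EPYC. BTG1, an antiproliferative gene on the other side of DCN, had 16.1, 61.7, 56.8 and 64.8 FPKM, with log2 ratios of 1.87, 1.76 and 1.94. FMOD and PRELP lie between BTG2 and OPTC. BTG2, an antiproliferative p53 target, had 6.64, 76.3, 63.5 and 65.1 FPKM, and FMOD beside it was close to 0. OPTC, an SLRP of the eye, had at most 0.305 FPKM, and CHIT1 at most 0.0343 FPKM. The further neighbours PLEKHG7, TREX2 and ATP2B3 stayed under 1 FPKM. NOL8, IPPK and ATP2B4 were expressed and within the limit on every day. The remaining neighbour CCNQ, listed under its older symbol FAM58A, had 15.9 FPKM on day 0 and log2 ratios of -0.68, -1.02 and -0.96.

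The genes most like each called member were found by the largest absolute difference over the 3 log2 ratios to day 0. For DCN they were VEGFA (0.10), IMMP2L (0.12) and P4HA3 (0.12). For LUM they were DAPK1 (0.05), the homeobox gene MSX2 (0.09) and L1CAM (0.16). For BGN they were SLIT3 (0.04), CYTIP (0.06) and CACNA1C (0.07). These values are over 3 ratios from 4 libraries and describe likeness only. The 1 FPKM added lowers the ratios of low genes, so their likeness to a member depends on it. Of the genes named, CYTIP, CACNA1C and P4HA3 had under 1 FPKM on day 0, with 0.155, 0.914 and 0.431 FPKM. On day 3 they had 1.44, 2.97 and 4.38 FPKM. Within a difference of 0.1, DCN had 0 other genes, LUM 2 and BGN 9.

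The other genes of the pathway were taken from lists by role, and their counts are to be read beside the 8.13%, 9.01% and 9.60% of all genes called higher on days 3, 6 and 9. Among 10 further SLRP-family genes, 4 reached 1 FPKM and 1 was called, higher on all 3 days. This was PODNL1, a podocan-like matrix protein, with 1.005, 5.71, 3.61 and 3.87 FPKM. The call rests on the sum over its transcripts: with the highest transcript alone, 1 gene of the list was called on day 3 and 0 on days 6 and 9. TSKU, a secreted inhibitor of growth factor signals, was the most abundant of them, with 11.7 FPKM on day 0 and 18.4 to 19.0 later, within the limit.

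Of 23 genes for the synthesis of chondroitin and dermatan sulfate chains, 22 reached the minimum. On days 3, 6 and 9, 1, 4 and 4 were called higher and 0 were called lower, with median log2 ratios of 0.24, 0.22 and 0.30. The 1 of 22 on day 3 lies under the share of all genes, and was 3 under both rescalings of the FPKM and 4 with 0.1 FPKM added. Over all genes, the 1046 called higher on day 3 became 1398 and 1250 under the rescalings and 1537 with 0.1 FPKM added. CSGALNACT1, which starts and extends chondroitin chains, had 0.540, 5.12, 10.7 and 12.3 FPKM and was called on all 3 days (log2 ratio 1.99, 2.92 and 3.11). XYLT1 and XYLT2, which attach the first sugar to the core protein, had log2 ratios between -0.54 and -0.05. DSE, the dermatan sulfate epimerase, had 0.53, 0.70 and 0.86, within the limit.

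Of 18 genes for keratan sulfate synthesis, tyrosine sulfation and the supply of sugar and sulfate, 15 reached the minimum, and 1, 2 and 3 were called higher and 0 lower. The 1 of 15 on day 3 lies under the share of all genes. It was 2 under both rescalings and 3 with 0.1 FPKM added, which also put the day 9 count at 5. The counts over all genes were larger as well, and on day 9 went from 1234 to 1647 with 0.1 FPKM added. The median log2 ratios of the list were 0.13, 0.26 and 0.36. CHST2, a sulfotransferase, was called on all 3 days, with 1.53, 5.29, 6.77 and 8.16 FPKM. UGDH, which makes the UDP-glucuronate used for these chains, had 87.0 FPKM on day 0 and 50.2 to 52.3 later, with log2 ratios of -0.78, -0.72 and -0.76. B4GALT4 had 55.5 FPKM on day 0 and 27.7 to 28.2 later. Its log2 ratios of -0.96, -0.98 and -0.95 were just within the limit.

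The collagens and other matrix partners had the largest median on day 3 among these lists. Of 16 genes, 12 reached the minimum, 7, 7 and 5 were called higher on days 3, 6 and 9 and 0 lower, and the median log2 ratios were 1.14, 1.03 and 0.46. COL3A1 (2.68, 2.50 and 2.42), COL1A2 (2.76, 2.58 and 2.15), COL6A2 (1.28, 1.69 and 1.46) and FN1, encoding fibronectin (1.21, 1.28 and 1.30), were called on all 3 days. COL1A1, the partner chain of COL1A2 in type I collagen, had 777, 1974, 1587 and 1146 FPKM, highest on day 3 as BGN and LUM were, with log2 ratios of 1.34, 1.03 and 0.56.

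Of 17 ligands and receptors linked to SLRPs, 13 reached the minimum, 4, 4 and 5 were called higher and 0 lower. TGFB1, whose product DCN and BGN bind, had 51.7 to 63.4 FPKM and log2 ratios of 0.29, 0.26 and 0.21. TGFB2 had 33.8, 71.2, 52.0 and 55.1 FPKM and was called on day 3 (log2 ratio 1.05). TLR4, a receptor for soluble BGN, had 10.8 FPKM on day 0 and 17.3 to 17.9 later, and TLR2 stayed under 1 FPKM. The receptors called on all 3 days were ITGA2 (1.39, 2.57 and 2.94), a collagen receptor chain, LRP1 (1.72, 1.67 and 1.74), through which DCN is taken up, and IGF1R (1.36, 1.34 and 1.26). The median log2 ratios of the list were 0.66, 0.68 and 0.69.

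Of 13 proteases and helpers, 8 reached the minimum, and the same number, 4, was called higher on each day and 0 lower. The genes called on all 3 days were ADAMTS1 (2.67, 2.86 and 3.02), MMP2 (2.12, 2.09 and 1.72), ADAMTS5 (1.98, 1.91 and 1.82) and MMP14 (1.13, 1.39 and 1.36), which cleave matrix proteins. BMP1, which removes propeptides from procollagen and from BGN, had 48.9, 58.1, 44.2 and 45.2 FPKM, with log2 ratios of 0.24, -0.14 and -0.11. The median log2 ratios were 0.97, 0.94 and 0.70.

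Of 28 other proteoglycan genes and their link proteins, 19 reached the minimum, and 6, 9 and 9 were called higher and 0 lower, with medians of 0.70, 0.99 and 0.95. Of the 5 genes called on all 3 days, the largest mean ratios were those of SDC1, a syndecan of the cell surface (2.44, 2.43 and 2.32), GPC1, a glypican (2.26, 2.21 and 2.28), VCAN, the large proteoglycan versican (1.89, 2.22 and 2.60), and SPOCK3, a testican (1.42, 1.15 and 1.28). ESM1, the proteoglycan endocan, was within the limit on day 3 (0.09) and had 1.74 and 2.88 on days 6 and 9, the largest day 9 ratio of the list. By FPKM, VCAN went from 3.48 on day 0 to 26.2 on day 9, a level close to that of DCN. ACAN, the cartilage proteoglycan aggrecan, stayed under 1 FPKM. SRGN, which encodes serglycin, was the most abundant gene of the list, with 267, 425, 598 and 765 FPKM, several times the level of BGN in the same libraries.

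**Figure D4:**
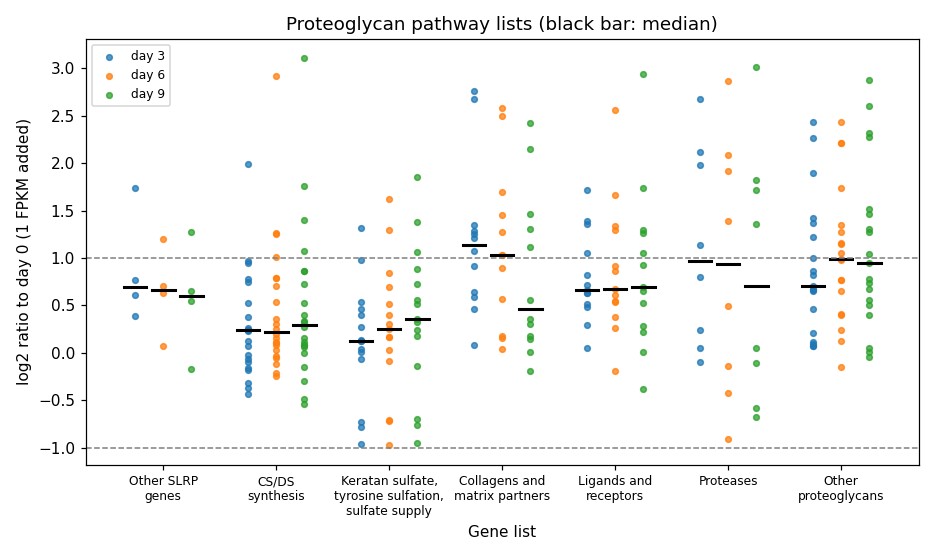
Log2 ratio to day 0 (1 FPKM added) of each gene at the minimum of 1 FPKM, by pathway list and day, from 1 library per day, with black bars at the medians and dashed lines at the limits of 1 and -1. The collagens and matrix partners have the highest median on day 3 (1.14), the medians of both synthesis lists lie between 0.13 and 0.36, and no gene of these lists is at or under -1.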

How the data were processed

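RNA of hFOB1.19 cells at days 0, 3, 6 and 9 was sequenced after removal of ribosomal RNA, with 1 library per time point. RNase R is described for the mRNA and not the circRNA libraries, which may be a swap, and its effect on the values was not tested. The authors deposited FPKM per transcript, computed from reads aligned with TopHat. The program behind the FPKM, the annotation and the build are not given in the sources used here. The submitters' processing notes name Bowtie 0.12.2 and mm8, a mouse build that cannot apply to human cells. The 9 deposited comparison tables, which hold the authors' fold changes and p-values, and the circRNA and lncRNA tables were not used here.

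FPKM were summed per symbol, 1 was added and log2 ratios were taken, with a limit of 1 and a minimum of 1 FPKM (Python 3.11.15, numpy 2.4.6, pandas 2.3.3, matplotlib 3.10.9). The calling rule was tested on simulated data only. These were built from genes with day 0 levels above those of DCN and the low members. The changes put in were well past the limit and the noise was small. The rule was thus close to certain to pass, and the test does not bear on the calls of such members. Columns were matched to samples by the day in the titles. Members and lists were chosen with earlier results of these data known. The named genes are the members, up to 4 list genes per direction called on all 3 days with the largest mean ratio, the 3 genes most like each called member, and the 2 neighbours on each side; list genes named besides these were chosen after their values were seen. Alternatives changed the amount added, the scaling, the minimum, the limit and the use of 1 transcript per gene. A comparison of protein sequences was planned and not run. DCN without 1 transcript is a description added after the data were seen. The motifs were also chosen then.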

Additional observations from a re-analysis of the deposited data

How the results depend on the processing

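No paired analysis was possible because the groups hold 1 library each, and for the same reason none could be left out. No ratio to day 0 of a member changed sign under the alternatives of amount added, scaling or transcript (24 of 24 under each). This was mostly fixed in advance. All of these ratios were above 0, and the amount added cannot change a sign. Both rescalings divide day 0 by the largest factor (1.09 and 1.07), so a positive ratio could not turn negative. LUM, FMOD, ASPN, PRELP and OMD have all FPKM in 1 transcript, so that alternative repeats their values. DCN and LUM passed the limit of 2-fold on all 3 days under each of these alternatives. Apart from the use of 1 transcript for DCN, none of them could have lowered the ratios of this pair. With 0.1 FPKM added, ASPN (1.19 on day 3, 1.07 on day 6), OGN (1.51 and 1.18) and OMD (1.13 on day 6) came past the limit. Then 5 members were called higher on day 3 and 5 on day 6. Of the 12859 genes, 1537 and 1624 were called higher on these days, in place of 1046 and 1158. With FPKM rescaled to the same sum, BGN on day 6 (1.01) and OGN on day 3 (1.02) came past the limit. The ratios of DCN and LUM between days 9 and 6, which were within 0.05 of 0, became -0.04 and -0.05. The same rescaling moved the split of all calls on day 3 from 60.6% to 77.8% higher, on day 6 from 58.4% to 74.3% and on day 9 from 59.6% to 68.9%, and median-of-ratios factors moved it to 72.3%, 70.5% and 69.7%. With the highest transcript alone, OGN had 1.11 on day 3, and the share of BGN was 78.3%, 79.1% and 76.7% on days 3, 6 and 9, since DCN is split over transcripts. Of the pathway lists, in which 0 genes were called lower, the keratan sulfate list and the protease list each had 1 lower on day 6 with 0.1 FPKM added. The keratan sulfate list had 1 lower on day 9 with the highest transcript alone. With a limit of 1.5-fold, that list had 3 genes lower on each day, and the protease list 1 on days 6 and 9. By construction, a limit of 1.5-fold called 5 members higher on each of days 3 and 6, beside 2234 and 2309 of all genes. A limit of 4-fold called 1 member higher on each of days 6 and 9, beside 259 and 301 of all genes. Counting error could not be estimated from FPKM, and members under 1 FPKM are the least certain.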
